A study of Mus musculus with 4 samples.

Results

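The genes of the unfolded protein response and the chaperones of the endoplasmic reticulum (ER) were measured on microarrays of 2 tissues, spinal cord and duodenum, from WT mice and from IP6K2-KO mice. The set holds 35 genes, named by symbol, of the 32585 genes or unnamed transcript identifiers on the array and grouped by known function, with earlier results of these data known. All 35 were represented, by 45 probes in all, and 27 of them by 1 probe. They fall into 8 roles: luminal chaperones, the calnexin and calreticulin cycle, disulfide formation, stress sensors, transcription factors, targets of ATF4 and CHOP, ER-associated degradation, and translocation into the ER.

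The mice were male and 20 weeks of age. All of them, WT and IP6K2-KO, were raised on the CE-2 diet, then ate iVid-neo, a purified diet, during 1 week, and had no food for the last 48 h. The WT group is labelled as littermates, and the knockout line, as the methods describe it, lacks exon 6 of IP6K2, where the kinase domain lies. The strain of these 4 samples is not given in the labels. The 4 arrays, on 1 slide, hold 1 sample of each genotype in each tissue. Without replicates, no p-value can be given, and every difference below describes 2 samples.

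IP6K2 makes the inositol pyrophosphate IP7 from IP6, and the comparison asks whether its loss goes with a difference in transcripts of either tissue. Secreted and membrane proteins enter the ER through the Sec61 channel and are folded there by chaperones and oxidoreductases. When unfolded proteins accumulate, the sensors IRE1 (Ern1), PERK (Eif2ak3) and ATF6 act in parallel. IRE1 splices the Xbp1 transcript, PERK phosphorylates the translation factor eIF2 and so favours translation of ATF4, and ATF6 is cut in the Golgi to release a transcription factor. Their targets raise folding capacity, export misfolded proteins to the proteasome or, through CHOP (Ddit3), favour cell death. Tissues that secrete much protein, such as the exocrine pancreas, plasma cells and goblet cells, keep a large ER. An array of transcript levels reads neither splicing of Xbp1 nor phosphorylation or cleavage, so that it measures the transcripts of the pathway and not the activity of its sensors.

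The target sequences of this response are known, and they are shown here because they are a feature of some of the genes that does not come from the arrays. The genes were grouped by known function, so their share of such elements is not an independent result. RefSeq promoters of build GRCm38.p6, from 250 bases before to 50 bases after the transcription start, were at hand for 30 of the 35 genes. The other 5 are Hyou1, Manf, Atf6, Derl1 and Sec61a1. The ER stress response element (ERSE), bound by ATF6 together with NF-Y, reads CCAAT, then 9 bases of any kind, then CCACG. Searched on both strands, it was found in 9 of the 30 promoters and in 29 of 17492 promoters of protein-coding genes (0.166%). The 10 sites of these 9 genes all lay upstream of the start, at 26 to 194 bases from it with a median of 98.5, and 6 of them ran in the direction of the gene. Each is written 5′ to 3′ in the direction of the element, with the fixed letters in capitals.
Calr (chr8:84847075-84847093, + strand): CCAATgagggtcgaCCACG
Canx (chr11:50325800-50325818, - strand): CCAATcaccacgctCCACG
Creld2 (chr15:88819520-88819538, - strand): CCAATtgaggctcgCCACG
Derl3 (chr10:75893242-75893260, - strand): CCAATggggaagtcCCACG
Dnajc3 (chr14:118937827-118937845, + strand): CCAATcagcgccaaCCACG
Hsp90b1 (chr10:86705533-86705551, + strand): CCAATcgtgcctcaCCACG
Hsp90b1 (chr10:86705638-86705656, - strand): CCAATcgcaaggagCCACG
Hspa5 (chr2:34772025-34772043, + strand): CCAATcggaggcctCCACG
Pdia6 (chr12:17266491-17266509, + strand): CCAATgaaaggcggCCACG
Syvn1 (chr19:6046532-6046550, + strand): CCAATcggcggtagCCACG

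The shorter form ERSE-II, ATTGG, any base, CCACG, was found in 2 of the 30 promoters (6.67%) and in 0.0629% of all promoters. The ATF4 element, TGATGNAA, was found in 4 of the 30 (13.3%), against 4.13% of all promoters. The XBP1 element TGACGTGG was in 0 of the 30 and in 0.823% of all. ERSE, ERSE-II and the XBP1 element share the letters CCACG on one strand or the other. A match is a description of letters in this window only.
Dnajb11 (chr16:22857852-22857862, + strand): ATTGGcCCACG
Herpud1 (chr8:94386377-94386387, + strand): ATTGGgCCACG
Asns (chr6:7693225-7693232, - strand): TGATGaAA
Chac1 (chr2:119351049-119351056, - strand): TGATGcAA
Herpud1 (chr8:94386317-94386324, - strand): TGATGcAA
Trib3 (chr2:152344039-152344046, + strand): TGATGtAA

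The 250 bases before the start of 5 of the genes follow, 5′ to 3′ in the direction of the gene, with the matched letters in capitals. Hspa5 is the best known target, Pdia6 was past 2-fold between the duodenum arrays and carries an ERSE, Herpud1 holds an ERSE-II and an ATF4 element, Derl3 had the largest difference between the tissues, and Asns, asparagine synthetase, holds an ATF4 element just before the start.
Hspa5 (chr2:34771840-34772089, + strand): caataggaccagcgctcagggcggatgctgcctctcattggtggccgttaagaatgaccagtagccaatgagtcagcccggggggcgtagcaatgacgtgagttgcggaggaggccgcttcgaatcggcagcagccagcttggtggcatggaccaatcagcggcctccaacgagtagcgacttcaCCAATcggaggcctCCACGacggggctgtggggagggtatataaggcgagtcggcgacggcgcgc
Pdia6 (chr12:17266339-17266588, + strand): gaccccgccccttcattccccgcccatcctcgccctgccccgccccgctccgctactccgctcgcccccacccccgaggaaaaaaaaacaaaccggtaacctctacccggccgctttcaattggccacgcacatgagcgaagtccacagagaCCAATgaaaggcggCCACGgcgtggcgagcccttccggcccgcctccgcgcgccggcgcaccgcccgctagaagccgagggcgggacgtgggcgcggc
Herpud1 (chr8:94386179-94386428, + strand): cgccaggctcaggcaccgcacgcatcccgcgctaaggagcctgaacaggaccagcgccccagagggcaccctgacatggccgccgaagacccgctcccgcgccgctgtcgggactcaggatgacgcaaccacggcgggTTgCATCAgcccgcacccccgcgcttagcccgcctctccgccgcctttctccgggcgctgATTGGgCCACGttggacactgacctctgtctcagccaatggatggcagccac
Derl3 (chr10:75893148-75893397, + strand): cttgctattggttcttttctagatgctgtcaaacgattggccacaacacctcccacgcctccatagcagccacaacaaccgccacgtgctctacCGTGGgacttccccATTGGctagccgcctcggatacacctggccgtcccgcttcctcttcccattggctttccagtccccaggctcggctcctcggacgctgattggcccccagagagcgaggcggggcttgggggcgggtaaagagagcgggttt
Asns (chr6:7693210-7693459, - strand): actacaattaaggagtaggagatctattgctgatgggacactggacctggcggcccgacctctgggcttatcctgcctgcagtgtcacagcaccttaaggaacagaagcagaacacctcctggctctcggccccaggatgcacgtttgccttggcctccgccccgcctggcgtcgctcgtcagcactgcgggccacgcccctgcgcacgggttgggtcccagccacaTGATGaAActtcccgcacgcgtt

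The level of a gene is log2 of the processed signal, the background-subtracted intensity of its spot, minus the 75th percentile of the array. That percentile was 905.1 for WT spinal cord, 971.2 for KO-labelled spinal cord, 68.01 for WT duodenum and 322.8 for KO-labelled duodenum, and 51.58% to 77.35% of the 39429 probes were well above background. A difference is given on the log2 scale relative to the median gene that was well above background on both arrays. A technical SD comes from probes spotted 10 times and covers spots of an array, not mice. The Ip6k2 probe gave a signal of 451.5 in WT spinal cord and 1320 in the array labelled KO, a difference of 1.49 above the median gene, and 139.4 and 572.0 in the duodenum, a difference of −0.10. Before scaling, the signal of this probe was not lower on either KO-labelled array. Relative to the median gene it was higher in the spinal cord and slightly lower, by 0.10, in the duodenum. Whether this probe falls inside the missing exon is not known from the sources used here, and genotypes below are given as labelled. Markers matched the tissues: 16 of 16 neuronal genes were above background on both spinal cord arrays, and 17 of 17 enterocyte genes on both duodenum arrays. The duodenum arrays also carried pancreatic acinar genes at a summed signal of 1891000 (WT) and 3242000 (KO-labelled), against 2089 and 2004 in the spinal cord.

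**Figure D1:**
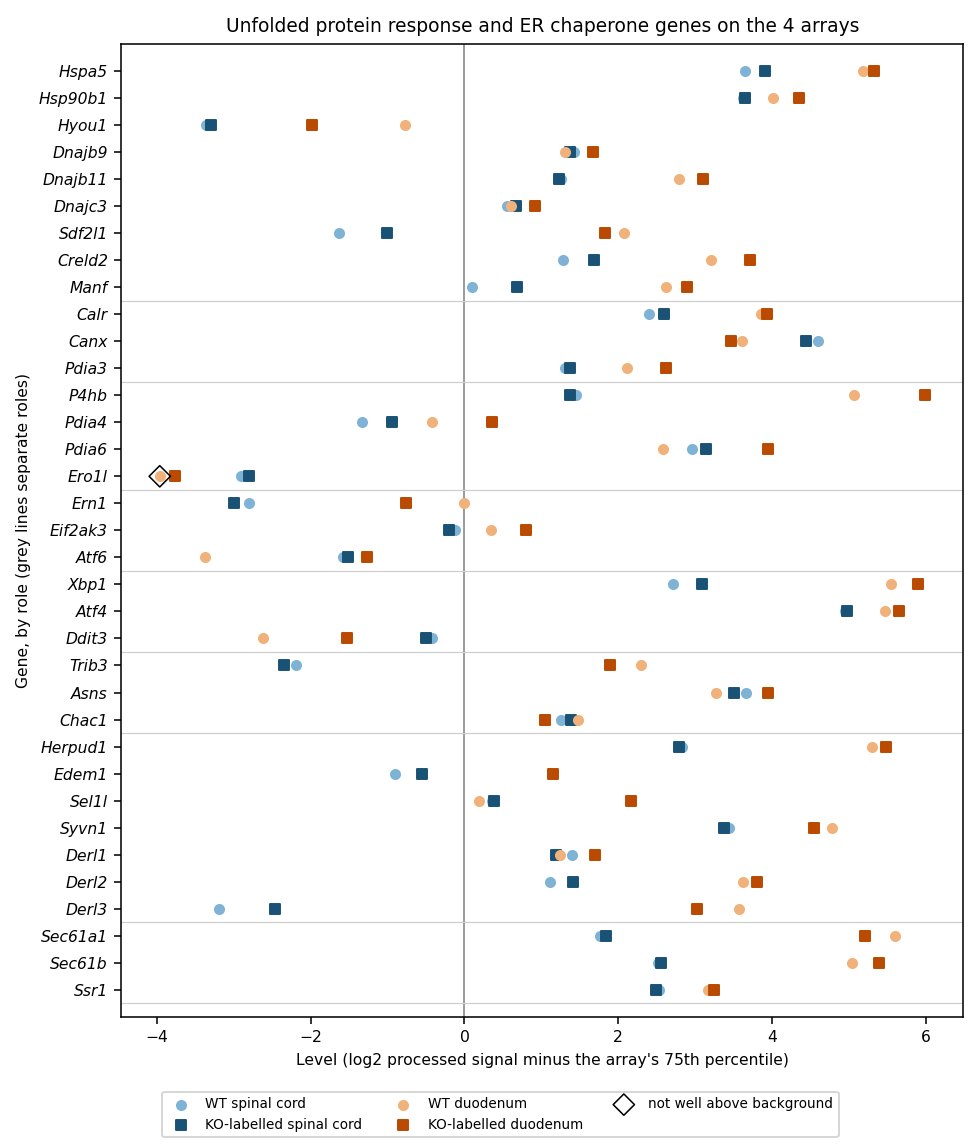
Level of each of the 35 genes on the 4 arrays (log2 processed signal minus the 75th percentile of the array), 1 point per array, with genes grouped by role. For most genes the duodenum points lie further apart than the spinal cord points, with Hspa5, Manf and Derl3 among the exceptions. The duodenum points of Derl3, Trib3, P4hb and Sec61a1 lie far to the right of their spinal cord points. Ero1l was not well above background on the WT duodenum array.

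Between the duodenum arrays, most of these genes were higher in the KO-labelled sample relative to the median gene. Ero1l apart, 34 of the genes were measured on both arrays, of which 25 were above the median gene and 9 below it, with a median of 0.41 and a range from −1.10 to 2.21. The split depended on the processing, with 28 above and 6 below under quantile normalization and 31 above and 3 below (Hyou1, Ern1 and Ddit3) under normexp background correction. Atf6, Sel1l, Pdia6, Ddit3 and P4hb were at least 2-fold higher, 5 of 35 (14.3%), and Hyou1 alone was at least 2-fold lower, 1 of 35 (2.86%). The background was wide: 9.19% of the 21436 genes tested were at least 2-fold higher and 10.1% at least 2-fold lower. At 1.5-fold, 9 of the 35 were higher, where 20.8% of all genes were, and 2 were lower, where 19.1% were. Bright genes tended to be lower on the KO-labelled array: over the 4204 brightest genes measured on both arrays the median was −0.23, with 3.09% at least 2-fold higher and 12.75% at least 2-fold lower. The 20 of the 35 genes that were as bright had a median of 0.34.

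Luminal chaperones bind unfolded chains in the ER. The signal of Hspa5 (BiP, the Hsp70 of the ER, which also holds the sensors inactive) was 2484 in WT duodenum and 12970 in KO-labelled duodenum. Its difference was 0.25 with a technical SD of 0.067. Hsp90b1 (GRP94, the Hsp90 of the ER) gave 1099 and 6586, a difference of 0.45. The raw signals of most genes were higher on the KO-labelled array, and after scaling these 2 chaperones stayed within 1.5-fold of the median gene. Hyou1 (GRP170, a nucleotide exchange factor for BiP) gave 39.83 and 81.45 and stood apart, at −1.10 with a technical SD of 0.11. Of the 9 genes of this role, 7 were above the median gene and 2, Hyou1 and Sdf2l1, below it. The co-chaperones Dnajb9, Dnajb11 and Dnajc3 were between 0.42 and 0.48. The secreted factors Creld2 and Manf were at 0.63 and 0.40, and Sdf2l1, a cofactor of BiP, was at −0.13. Dnajb9 had a second, dimmer probe that went the other way, at −1.35 with signals of 31.53 and 54.1.

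In the calnexin and calreticulin cycle, which holds glycoproteins until they are folded, Calr was at 0.19, Canx at −0.03 and the oxidoreductase Pdia3 at 0.62. Genes of disulfide formation stood higher. P4hb, protein disulfide isomerase itself, gave a signal of 2275 in WT and 20520 in KO-labelled duodenum, a difference of 1.04 with a technical SD of 0.067. Pdia6 gave 409.1 and 4966, a difference of 1.47, and its second probe, with signals of 13.82 and 147.6, was at 1.28. Pdia4 was at 0.90. Ero1l (now Ero1a), the oxidase that recharges protein disulfide isomerase, gave 4.356 and 23.8. It was not well above background on the WT array, and its difference is a bound of at least 1.25-fold higher. The 3 genes of this role measured on both arrays were thus among the highest of the set, with a median of 1.04.

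The 3 sensors did not move together. Atf6 gave a signal of 6.577 in WT and 133.8 in KO-labelled duodenum, the largest difference of the set at 2.21, but the WT signal lay close to the lowest signal well above background on that array, 4.295, and its technical SD was 0.24. Eif2ak3 (PERK) gave 86.28 and 562.2, at 0.57. Ern1 (IRE1) gave 67.7 and 189.7, at −0.65, one of the 2 genes at least 1.5-fold lower. Among the transcription factors, Xbp1 gave 3184 and 19290, at 0.47, and Atf4 gave 3023 and 16180, at 0.29. A second probe of Atf4, with signals of 83.2 and 261.0, was at −0.48. Ddit3 (CHOP) gave 11.02 and 111.4, at 1.21 with a technical SD of 0.18. Atf6 and Ddit3, both dim on the WT array, depended on how background was removed. With normexp correction in place of the scanner's own, which adds an offset of 50 to each signal and so shrinks differences of dim genes, Atf6 was at 0.16 and Ddit3 at −0.04. Sel1l, Pdia6, P4hb and Hyou1 stayed past 2-fold in the same direction under that correction, at 2.11, 1.95, 1.78 and −1.03, and the number of genes at least 2-fold higher was 11.

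Targets of ATF4 and CHOP were split. Asns, an ATF4 target that makes asparagine, was at 0.80. Trib3, a pseudokinase induced by ATF4 and CHOP, was at −0.28 and Chac1, which degrades glutathione, at −0.31. In ER-associated degradation, which returns misfolded proteins to the cytosol, Sel1l stood apart. Sel1l is the partner of the ubiquitin ligase Hrd1 (Syvn1), and its signal was 77.48 in WT and 1448 in KO-labelled duodenum, a difference of 2.09 with a technical SD of 0.085. Its ligase did not share this difference, with Syvn1 at −0.11. Derl1 and Derl2, which belong to the same complex, were at 0.57 and 0.29, Herpud1 at 0.29 and the mannosidase-like Edem1 at 0.12. Derl3 was at −0.43. Of the 9 genes below the median gene, Sdf2l1, Canx, Trib3, Chac1, Syvn1, Derl3 and Sec61a1 were above it under normexp correction, by 0.04 to 0.61, and Canx, Syvn1 and Sec61a1 also under quantile normalization. In translocation, the channel subunits Sec61a1 and Sec61b were at −0.27 and 0.47, and Ssr1 of the translocon-associated complex was at 0.19. The other probes of Ssr1, with WT signals of 7.148 and 4.518, were at 1.53 and 1.12, so that probes of 1 gene could differ more than most genes did.

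Other transcripts moved with these values in the duodenum. Of 23 pancreatic acinar genes, all above background on both arrays, 4 were at least 2-fold higher and 11 at least 2-fold lower in the KO-labelled sample, with a median of −0.89. The bright enzyme Cpa1, with signals of 143400 in WT and 170700 in KO-labelled duodenum, was at −1.88. Bhlha15, the transcription factor of secretory cells, was dimmer, with signals of 407.0 and 4062, and was at 1.19. Some bright acinar genes were higher too. Gp2, with signals of 10070 and 110400, was the highest at 1.32, and Pnliprp1, with 21560 and 186800, was at 0.98. Bright genes tended to be lower on this array, as given above, and the part of brightness in the acinar values was not tested. All 8 red blood cell genes measured were at least 2-fold lower, with a median of −2.80. Paneth cell genes had a median of −1.27, plasma cell genes −0.57, goblet cell genes −0.19 and enterocyte genes 0.21. Agr2, a protein disulfide isomerase of goblet cells, was at 1.03, the highest of the 11 goblet cell genes. Of these 11, 1 was at least 2-fold higher and 2 at least 2-fold lower, with Spink4 the lowest at −2.38. The part of these cell types, and that of the lower signal of the WT duodenum array, in the differences of the 35 genes was not tested. In a whole tissue, fewer cells of a type and less RNA per cell cannot be told apart.

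Between the spinal cord arrays the same genes hardly differed. None of the 35 was at least 2-fold higher, where 2.43% of 25223 genes were, and none was at least 2-fold lower, where 0.773% were. The median of the 35 was 0.10, with 24 above the median gene and 11 below it, and the range was −0.17 to 0.77. With normexp correction the median was 0.67 and 5 genes were at least 2-fold higher, or 0 where local backgrounds flagged by the scanner were replaced. At 1.5-fold, 3 genes were higher (5.64% of all genes were) and 0 were lower (2.82% were). These 3 were Derl3, Sdf2l1 and Manf. The signal of Derl3, a derlin of secretory cells, was 98.56 in WT and 175.3 in KO-labelled spinal cord, a difference of 0.77 with a technical SD of 0.085, but of −0.36 under normexp correction and 0.56 where flagged backgrounds were replaced. Sdf2l1 gave 292.9 and 481.0, at 0.65, and Manf gave 969.3 and 1556, at 0.62. Creld2, Pdia4, Xbp1 and Edem1 followed at 0.44, 0.43, 0.40 and 0.39. Hspa5 gave 11380 and 14620, at 0.30 with a technical SD of 0.057, and Hsp90b1 gave 11160 and 12230, at 0.07.

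The sensors and the ATF4 arm lay near 0 in the spinal cord. Ern1 gave 130.0 and 121.4, at −0.16, Eif2ak3 gave 834.8 and 846.2, at −0.04, and Atf6 gave 301.9 and 338.4, at 0.10. Xbp1 gave 5960 and 8241. Atf4 gave 28060 and 30710, at 0.07, and Ddit3 gave 676.8 and 688.5, at −0.04. Trib3 and Asns were both at −0.13 and Chac1 at 0.18. The 7 highest genes of the spinal cord thus hold no sensor and none of Trib3, Asns and Chac1. Each of these 2 roles has only 3 genes, so their absence there sets neither role apart. Of the genes past 2-fold in the duodenum, P4hb was at −0.03 here, Pdia6 at 0.21, Sel1l at 0.07 and Hyou1 at 0.10.

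**Figure D2:**
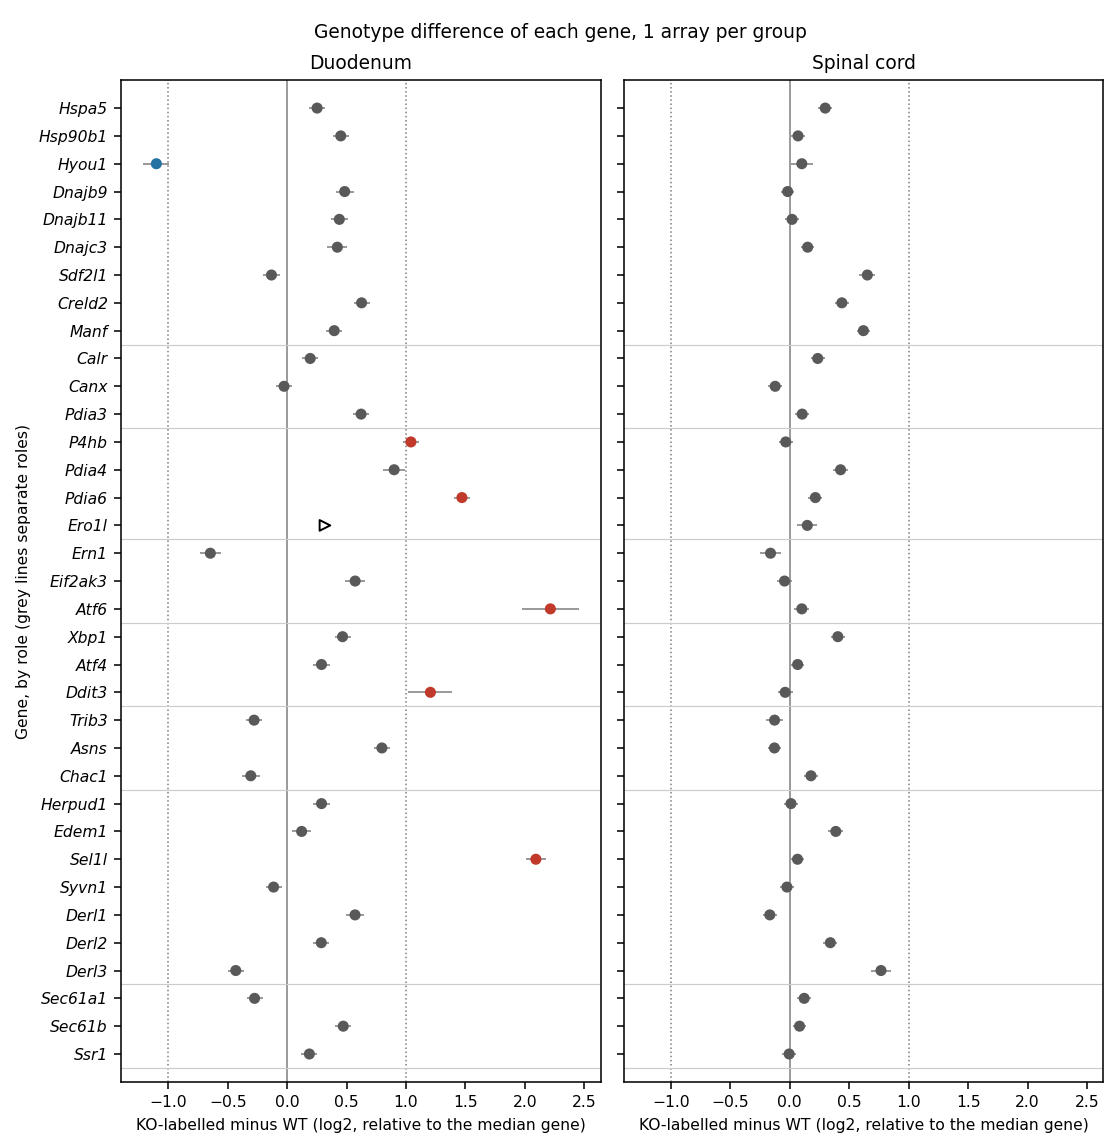
Difference between the KO-labelled and the WT array (log2, relative to the median gene) of each gene in the duodenum (left) and the spinal cord (right), with bars for the technical SD and dotted lines at 2-fold. Red points are at least 2-fold higher (5 in the duodenum, 0 in the spinal cord), the blue point is Hyou1, at −1.10, and the open triangle is the bound for Ero1l.

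Markers of other cells moved with the genotype label in the spinal cord too. Of 12 skeletal muscle genes, 11 were at least 2-fold higher on the KO-labelled array, with a median of 4.05, as were 6 of 11 Schwann cell genes (median 1.67) and 7 of 10 red blood cell genes (median 1.23). Of 10 plasma cell genes, 2 were at least 2-fold higher, Jchain at 1.15 (signals of 82.41 and 191.4) and Pou2af1 at 1.02, and Sdc1 was at 0.84. The median of these 10 was 0.105, and the lowest was Tnfrsf17 at −0.36. Neuronal genes had a median of −0.02, astrocyte genes −0.15 and oligodendrocyte genes 0.23. The part of these cells in the values of Derl3, Sdf2l1, Manf and Creld2 was not tested.

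The 9 genes with an ERSE were compared with the others as a description, a comparison chosen after the values were seen. In the duodenum their median was 0.25 (6 of 9 above the median gene, from −0.43 for Derl3 to 1.47 for Pdia6), against 0.44 for the 25 others measured on both arrays. In the spinal cord it was 0.22 (7 of 9 above the median gene), against 0.07 for the 26 others. In both tissues the others include Hyou1, Manf, Atf6, Derl1 and Sec61a1, whose promoters were not searched and may hold the element. Genes outside the set whose promoter holds the same element had a median of 0.56 over 8 genes in the duodenum and −0.04 over 12 genes in the spinal cord.

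The tissues differed far more than the genotypes. Relative to the median gene, 14 of the 35 genes were at least 2-fold higher in the duodenum in WT (23.8% of all genes were) and 6 were at least 2-fold lower (32.2% were). On the KO-labelled arrays 19 were higher (25.7%) and 3 lower (30.4%). These 2 comparisons share no array. All 14 genes that were higher in WT were also at least 2-fold higher on the KO-labelled arrays, 3 genes were lower in both, and 27 of the 35 had the same sign. The same overlap over all genes is not given, so these counts describe the 35 genes and do not set them apart. The median of the set was 0.77 in WT and 1.01 on the KO-labelled arrays, and quantile normalization of the 4 arrays brought these to 0.27 and 0.77. Under normexp correction 11 genes were higher and 4 lower in WT, and with flagged backgrounds replaced 10 were higher and 9 lower, with 10 of the 14 and 4 of the 6 kept.

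Derl3 led this order. Its signal was 98.56 and 175.3 in the spinal cord (WT, then KO-labelled) and 809.0 and 2629 in the duodenum, a difference of 6.14 in WT and 5.20 on the KO-labelled arrays. Trib3 gave 198.7 and 190.0 in the spinal cord and 333.2 and 1204 in the duodenum, at 3.85 and 3.95. P4hb gave 2468 and 2518, then 2275 and 20520, at 2.99 and 4.32. Derl3 and Trib3 were thus brighter on the WT duodenum array than on either spinal cord array, although that array had the lowest 75th percentile. Sec61a1 gave 3073 and 3491, then 3291 and 11930, at 3.21 and 3.06, and Sdf2l1 gave 292.9 and 481.0, then 287.3 and 1149, at 3.08 and 2.55. Xbp1, the transcription factor of secretory cells, came next, at 2.20 and 2.52, followed by Sec61b, Herpud1 and Ern1 with differences between 1.85 and 2.53. The 3 sensors again parted: Ern1 was at 2.17 and 1.93, Eif2ak3 at −0.17 and 0.70, and Atf6 at −2.41 and −0.05. Under normexp correction Ern1 in WT was at 0.85 and Atf6 in WT at −0.48, neither past 2-fold, and Eif2ak3 in WT was at 0.12 under quantile normalization.

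At the other end, Ddit3 gave 676.8 and 688.5 in the spinal cord and 11.02 and 111.4 in the duodenum, at −2.83 and −1.34, the first of which was −1.11 under normexp correction. Ero1l gave 120.3 and 139.2, then 4.356 and 23.8, a bound of −1.68 in WT and −1.26 on the KO-labelled arrays, or −0.14 and −0.44 under normexp correction. Canx gave 22000 and 21120, then 830.3 and 3573, at −1.62 and −1.27, whereas its luminal relative Calr was at 0.83 and 1.05. Chac1 gave 2154 and 2546, then 188.8 and 669.3, at −0.41 and −0.64. Atf4 was near the median gene, at −0.11 and 0.37, and Hsp90b1 at −0.24 and 0.40. Under quantile normalization of the 4 arrays these 2 were lower in the duodenum in both genotypes, Atf4 at −1.43 and −0.95 and Hsp90b1 at −0.93 and −0.38. Hspa5 was at 0.91 and 1.12, and at −0.01 and 0.14 under quantile normalization. The targets Trib3, Chac1 and Asns, all known as ATF4 targets, therefore lay far apart between the tissues, at 3.85, −0.41 and −1.03 in WT.

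**Figure D3:**
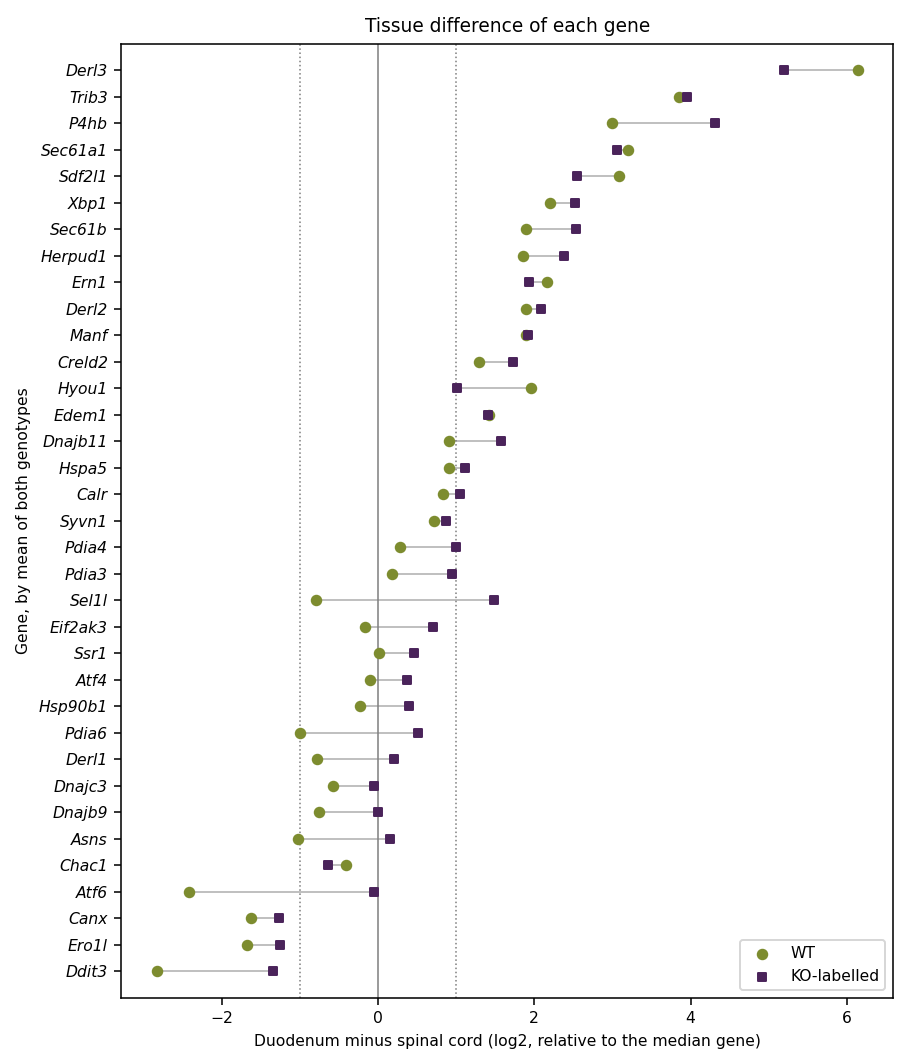
Duodenum minus spinal cord (log2, relative to the median gene) for each gene in WT (circles) and on the KO-labelled arrays (squares), ordered by the mean of both, with dotted lines at 2-fold. Derl3 is highest at 6.14 and 5.20, and Ddit3 is lowest at −2.83 and −1.34. Sel1l and Atf6 have the widest gaps between the genotypes.

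The duodenum samples held pancreatic acinar genes, all 23 of which were at least 2-fold higher in the duodenum in both genotypes, with a median of 13.28 in WT and 13.07 on the KO-labelled arrays over the 15 and 16 of them above background in both tissues. Plasma cell genes were higher too, 9 of 10 in both genotypes, with Jchain at 10.25 and 7.91, as were 10 of 11 goblet cell genes and 8 of 8 Paneth cell genes. How much of the tissue difference of Derl3, P4hb or Xbp1 came with these secretory cells was not tested.

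Another 8 lists of related genes gave the surroundings of the set. Over all of these lists, 31 of 186 genes above background were at least 2-fold higher in KO-labelled duodenum (16.67%, against the 9.19% of all genes) and 8 at least 2-fold lower (4.301%, against 10.1%). By list, 6 of 35 genes of the ATF4 programme were higher and 4 lower, from Nupr1, a stress-induced cofactor, at 1.99 to the secreted Gdf15 at −1.40. Of 34 oxidoreductases and folding factors, 7 were higher and 1 lower, from Dnajc1, a membrane-bound J protein, at 1.82 to Selenom at −1.36. Of 25 other genes of ER-associated degradation, 5 were higher, led by the lectin Erlec1 at 1.68, and 0 were lower, the lowest being Fam8a1 at −0.69.

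Of 32 genes of signal peptide and oligosaccharyltransferase complexes, 5 were higher and 1 lower, from Sec61a2 at 1.83 to Sec61g at −1.20. Of 27 coat and cargo genes between the ER and the Golgi, 3 were higher, led by the golgin Golgb1 at 1.43, and 0 were lower. The lowest of them was Kdelr2 at −0.475, and their median of 0.60 was the highest of the lists. Of 11 genes of glycan trimming, 3 were higher and 1 lower, from Mcfd2 at 1.19 to Prkcsh at −1.23. Among 16 genes of other sensors, ER-bound factors and cell death signalling, 2 were higher and 1 lower, from Creb3 at 1.02 to Bax at −1.05. The median of this list was −0.29. Its cell death and signalling genes, Bbc3, Bcl2l11, Bak1, Bax, Traf2 and Map3k5, were all below the median gene, at −1.05 to −0.42. Of the rest measured on both arrays, Ern2, Creb3, Creb3l2, Creb3l4 and Mbtps1 were above it, and Atf6b, Creb3l1, Creb3l3 and Nfe2l1 below it. None of the 6 genes of the eIF2 kinases and phosphatase was past 2-fold, with Eif2ak2 (PKR) the highest at 0.98 and Ppp1cc the lowest at −0.23. In the spinal cord, 1 of 186 genes was at least 2-fold higher, the cystine carrier Slc7a11 at 1.13 with signals of 7.485 and 17.07, and 0 were lower. Kdelr3, a receptor that retrieves ER proteins, followed at 0.85, and the medians of the 8 lists there lay between −0.01 and 0.05.

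**Figure D4:**
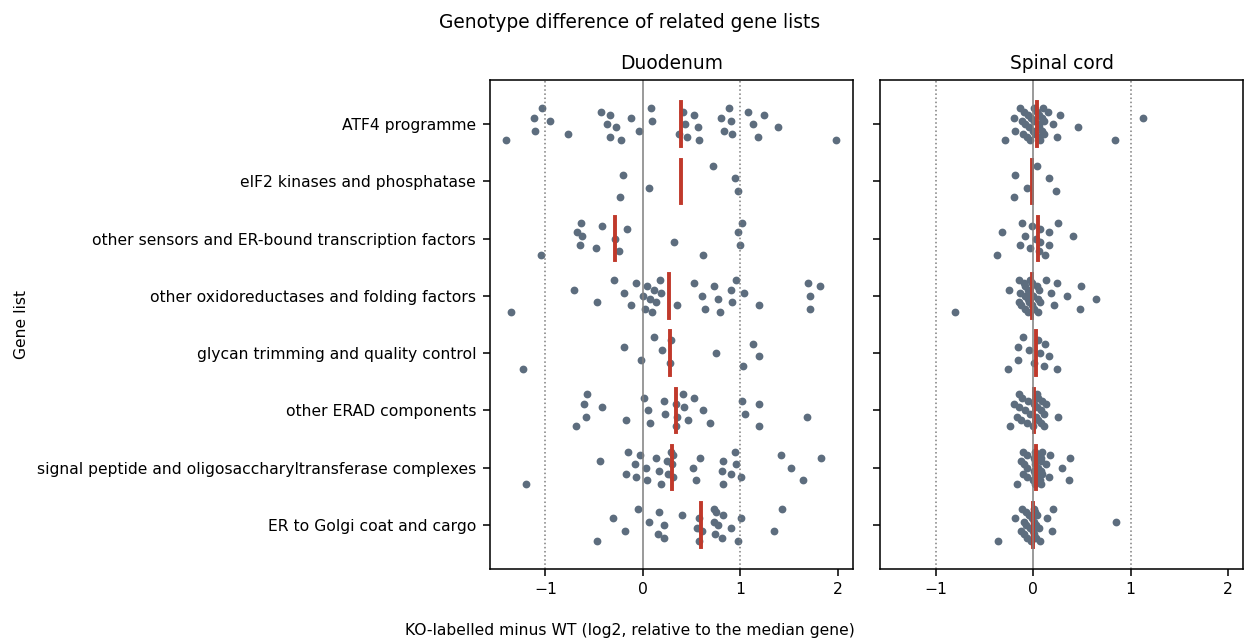
Difference between the KO-labelled and the WT array (log2, relative to the median gene) of the genes of 8 related lists in the duodenum (left) and the spinal cord (right), 1 point per gene measured on both arrays, with red bars for the medians. The duodenum medians run from −0.29 to 0.60, and the spinal cord medians from −0.01 to 0.05.

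Between the tissues, 60 of 188 genes of these lists were at least 2-fold higher in WT duodenum (31.91%, against 23.8% of all genes) and 54 lower (28.72%, against 32.2%). On the KO-labelled arrays 78 were higher (41.49%, against 25.7%) and 29 lower (15.43%, against 30.4%). Agr2, not above background in the spinal cord, had bounds of at least 12.18 and 13.58. The highest of the genes above background in both tissues were Pdia2, an isomerase of the pancreas, at 12.70 and 12.17, and Creb3l3, an ER-bound factor of liver and gut, at 10.99 on the KO-labelled arrays. Psat1, an enzyme of serine synthesis and an ATF4 target, was lowest in the ATF4 programme in both genotypes, at −4.98 and −3.79.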

How the data were processed

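Total RNA of 1 spinal cord and 1 duodenum per genotype was labelled with Cy3 from 0.1 µg and hybridized to 1-colour Agilent arrays. Only RNA with an integrity number above 7.0 was used, per the labels. The authors deposited scanner output of Agilent Feature Extraction 11.5.1.1, whose processed signal is a spot's intensity with background and spatial trend removed, as well as log2 values in a table. The table was matched by quantile normalization of log2 of the processed signal over the 4 arrays (median absolute difference 0.001044). Here spots flagged as outliers were dropped (89 to 133 of 43020), spots of a probe were averaged, log2 of the processed signal was taken, and each array was set to its own 75th percentile. No probe was saturated. RefSeq accessions were named through the GRCm38.p6 gene table, which named 25868 of 26391 probes with such an accession. A gene was read from its probe of highest mean level over the 4 arrays.

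Differences were taken relative to the median of all genes measured (well above background) on both arrays. This median stood at −0.12 in the duodenum, −0.04 in the spinal cord, 0.63 between WT tissues and 0.30 between KO-labelled tissues, and at 2.89, −0.21, −4.41 and −1.56 when arrays were scaled on 8 spiked-in probes, a scaling that leaves the relative differences as they are. A gene not well above background on 1 array was given a bound, computed from the lowest level that passed background on that array, or from the gene's own level if higher. A gene was counted from 2-fold. The technical SD came from the 50 probes nearest in brightness among 399 spotted 10 times. No test was made, since each group has 1 array, and the number of arrays limits the precision. Named were all 35 genes, and in full those past 2-fold between genotypes, the 5 highest and 5 lowest between tissues, the sensors, and Xbp1, Atf4, Ddit3, Hspa5 and Hsp90b1. From each related list the highest and lowest gene between the duodenum arrays were named, and for the other comparisons only some of them. The 35 genes and all lists were chosen with earlier results of these data known. Alternatives were quantile normalization, normexp background correction with an offset of 50 (limma 3.58.1 in R 4.3.3), the deposited table, the mean of probes, other filters and a 1.5-fold limit. The steps were tested on simulated data. Python 3.11.15 and numpy 2.4.6 were used.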

Additional observations from a re-analysis of the deposited data

Results flagged for a closer look

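Of the genes named above or leading a list, 12 lay on opposite sides of the median gene in the spinal cord and the duodenum by more than 2 technical SDs in each. This difference between tissues was not tested, as there was 1 array per group. Genes leading a list were chosen for their own extreme values, and the share over all genes is not given. The count therefore sets no gene apart from others. Of these, 5 belong to the set: duodenum minus spinal cord, the genotype differences were apart by −1.20 for Derl3 (lower in KO-labelled duodenum, higher in KO-labelled spinal cord), 0.93 for Asns, 0.74 for Derl1, −0.48 for Chac1 and −0.40 for Sec61a1. None of these 5 kept both directions under every alternative. With normexp correction the values in duodenum, then spinal cord, were 0.25 and −0.36 for Derl3 (0.25 and 0.56 with flagged backgrounds replaced), 1.37 and 0.66 for Asns, 0.97 and 0.55 for Derl1, 0.035 and 0.72 for Chac1, and 0.45 and 0.78 for Sec61a1. Sec61a1 in the duodenum was also at 0.002 under quantile normalization, and Derl1 in the spinal cord was at −0.009 with the mean of its probes. The other 7 come from the related lists, with Gdf15 at −2.24, Creb3l4 at 1.37, Eif2ak2 at 1.17, Sec16b at 0.92, Tusc3 at 0.76, Kdelr2 at −0.68 and Lman1l at 0.53. Of these 7, 2, Creb3l4 and Eif2ak2, kept both directions under all alternatives, while Gdf15, Kdelr2, Lman1l, Sec16b and Tusc3 did not.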

How the results depend on the processing

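The counts of genes past 2-fold in the duodenum, 5 higher and 1 lower, and in the spinal cord, 0 and 0, were the same under quantile normalization of the 4 arrays or within each tissue, in the deposited table, with the mean of probes and with both other filters on dim genes. At 1.5-fold they were 9 and 2 in the duodenum and 3 higher in the spinal cord. Normexp correction gave 11 higher in the duodenum, with or without replacement of flagged local backgrounds, and 5 higher in the spinal cord, which returned to 0 when flagged backgrounds were replaced. Ddit3 in the duodenum was at −0.038 under both forms of normexp. The median of the 35 genes in the duodenum, 0.41, was 0.48 with quantile normalization within tissue and 0.82 under both forms of normexp. In the spinal cord, 0.10 became 0.67 under normexp. The tissue median of 0.77 in WT became 0.27 with quantile normalization of the 4 arrays and in the deposited table, 0.48 under normexp, 0.061 with flagged backgrounds replaced and 0.49 with the mean of probes. On the KO-labelled arrays 1.01 became 0.77 with quantile normalization and in the table, and 0.58 under both forms of normexp. Between the tissues the counts of 14 higher and 6 lower in WT became 11 and 4 under normexp, and 10 and 9 with flagged backgrounds replaced, and the 19 and 3 on the KO-labelled arrays became 15 and 2 under both forms. Genes above and below the median gene in the duodenum, 25 and 9, ran from 23 and 11 with the mean of probes to 31 and 3 under normexp, and in the spinal cord 24 and 11 ran from 23 and 12 to 30 and 5 under the same settings. Normexp correction adds an offset of 50 to each signal, against 75th percentiles of 68.01 (WT duodenum) and 322.8 (KO-labelled duodenum). Under it the bright genes Hspa5, Hsp90b1 and Calr moved in the duodenum from 0.252, 0.451 and 0.194 to 0.898, 1.059 and 0.715. Of the 35 genes, only Pdia4, Ero1l, Atf6 and Ddit3 moved down there. The cause of these shifts, and the part of the offset in them, was not tested. The normexp counts are therefore no separate support for higher levels. Of 420 values of single genes under alternatives, 225 moved by less than the technical SD, 193 moved further and 2, both Ddit3, changed sign from a value past 2-fold. No paired analysis was possible because there is a single array in each group, with nothing to pair it by. The WT duodenum array, with 51.58% of probes well above background, limits what can be read from dim genes.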
